A study of Nicotiana tabacum with 54 samples.

Results

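The Phi class of the tobacco glutathione S-transferase family has 5 genes in the gene list of the study, NtGSTF1 (Nitab4.5_0003412g0070), NtGSTF2 (Nitab4.5_0000498g0140), NtGSTF3 (Nitab4.5_0000483g0230), NtGSTF4 (Nitab4.5_0002470g0030) and NtGSTF5 (Nitab4.5_0002353g0040). They were taken by these identifiers from deposited tables of 69500 genes, of which 59 belong to the family, and all 5 were found. The list pairs NtGSTF1 with NtGSTF3 and NtGSTF2 with NtGSTF5 as segmental duplicates. Total RNA of Nicotiana tabacum, all of it sampled after topping (removal of the flower head), was sequenced from root, stalk and leaf. In each tissue there were 3 libraries of each of 6 materials, labelled Hongda, HxB, Basma, Va116, VxG88 and GDH88, which makes 18 libraries for each tissue and 54 in all. By the methods each biological replicate was 3 plants, from which root, stalk and leaf were all taken, and sampling was on a set day after transplanting. The labels themselves give no other treatment and no plant age.

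Glutathione S-transferases join the tripeptide glutathione to reactive or foreign compounds, which marks these for transport into the vacuole. Phi and Tau are the classes found mainly in plants, and both are known for herbicide detoxification. Some Phi proteins also act as carriers of pigments, such as AN9 of petunia and TT19 of Arabidopsis, which are needed for anthocyanins to reach the vacuole. Nicotiana tabacum is an allotetraploid, so that many of its genes are present as closely related copies, and reads can be shared between such copies. The sources used here do not give how such reads were divided, and the levels within each duplicated pair are uncertain to that degree.

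The levels are FPKM (fragments per kilobase of transcript, scaled to the fragments of the library). They are set per length, so that genes can be compared within a library. Summed over all genes, a library held 773020 to 818154 FPKM in root, 768375 to 832327 in stalk and 792647 to 823454 in leaf. Sums this even could also be those of TPM, another unit per length. The number of reads behind a value is unknown. Low values of 7063 other genes did not fall on whole steps, and this check left out NtGSTF1 and NtGSTF3. Against the material profiles of the other tissues, 49 of 54 libraries correlated best with the material of their label and 5 with another one. These 5 were Basma 1 and GDH88 2 in root, VxG88 1 and GDH88 1 in stalk and VxG88 2 in leaf, where the number is that of the deposited column. Tests that rest on them are given with and without them, and levels and counts of libraries are those of all libraries unless stated. Basma 1 in stalk is not among the 5, although its r with its label was only 0.24. The identifiers carry no names that would allow a check of the tissues by marker genes.

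NtGSTF4 was highest in root and was by far the most abundant Phi gene there, while NtGSTF2 and NtGSTF5 were highest in leaf, with an intermediate level in stalk. NtGSTF1 was at trace level in nearly all leaf libraries and NtGSTF3 was at 0 in nearly all libraries. The tissue order of NtGSTF4 (root, stalk, leaf) was thus the reverse of that of NtGSTF2 and NtGSTF5 (leaf, stalk, root), and each of these orders held for the means of 6 of 6 materials. In bulk tissue, a gene used by fewer cells and a gene with less RNA in each cell cannot be told apart.

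**Figure D1:**
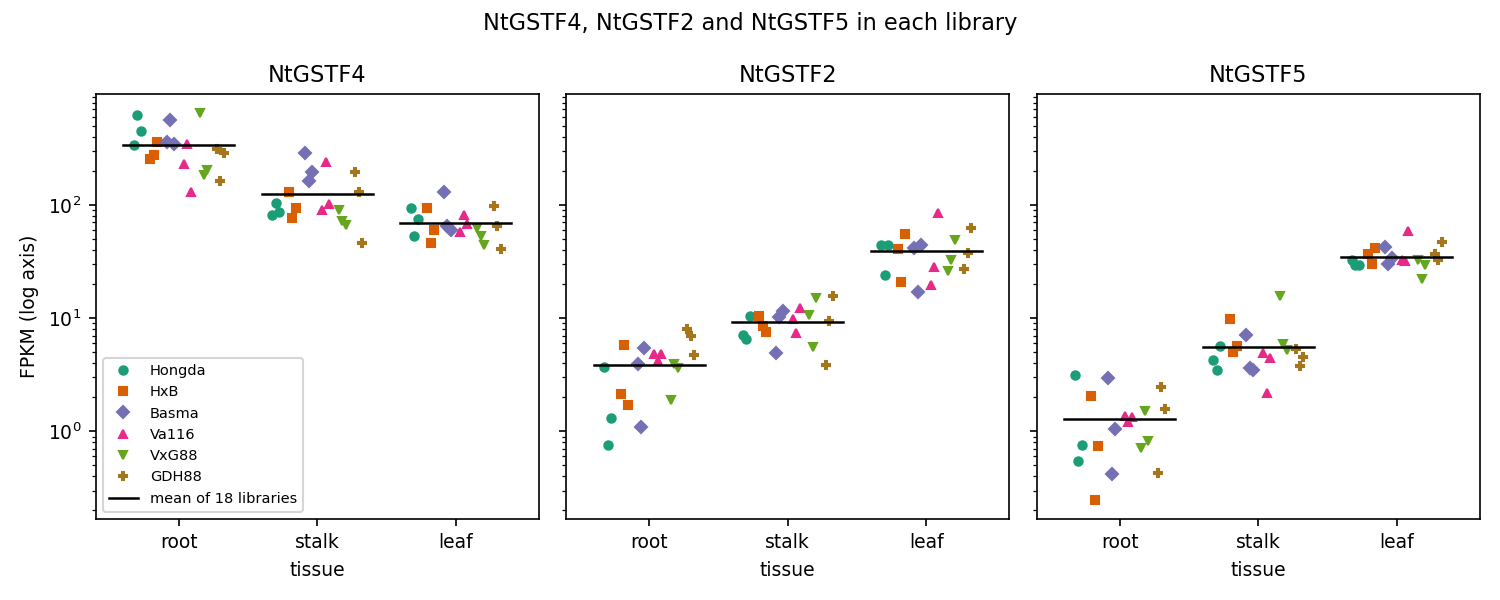
FPKM (log axis) of NtGSTF4, NtGSTF2 and NtGSTF5 in each of the 54 libraries, by tissue, with 1 symbol for each material and a line at the mean of 18 libraries. NtGSTF4 averages 337 in root, 124 in stalk and 69.1 in leaf, while NtGSTF2 averages 3.83, 9.28 and 38.9 in these tissues and NtGSTF5 1.29, 5.56 and 35.0.

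NtGSTF4 is the member for which the study also designed an RT-qPCR assay, so its primers are shown here, with no base in capitals since none was singled out.
NtGSTF4 forward: ccctgttatgtcacctgctgta
NtGSTF4 reverse: tgggtaatggctcttgactcag

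In root NtGSTF4 had a lowest level of 130 FPKM, a median of 325 and a highest of 642. In stalk the corresponding values were 46.3, 98.2 and 284 FPKM, and in leaf 40.8, 63.5 and 130 FPKM. All 18 root libraries lay above all leaf libraries, the closest being Va116 3 in root (130.22) and Basma 1 in leaf (130.2). Root and stalk overlapped over all libraries, with 11 of 18 root libraries above the highest stalk library, and did not overlap within 4 of 6 materials. Stalk and leaf did not overlap within 3 of 6 materials, and 6 of 18 stalk libraries lay above the highest leaf library. The share of all genes whose libraries separate the tissues in these ways was not computed. Such separation is therefore a description only, here and for NtGSTF2 and NtGSTF5 below.

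Tissues were compared with limma on log2(FPKM + 1) with material as a further term, over the 42820 genes that reached 1 FPKM in 3 or more libraries. A gene was called at an adjusted p (Benjamini-Hochberg over these genes) under 0.05, and fold changes on this scale understate those of low genes. The p-values weigh a difference against the spread between these libraries. NtGSTF4, NtGSTF2 and NtGSTF5 passed the filter, and NtGSTF1 and NtGSTF3 did not. Between root and leaf 1 of these 3 genes was higher, NtGSTF4, with a log2 fold change of 2.20 (SE 0.18, adjusted p = 2.25e-15 by limma), where 36.4% of all genes tested were higher. The ratio of its means between root and leaf was 4.87, and it ranged over the materials between 3.41 and 6.45, so every material had the same direction. Between root and stalk NtGSTF4 was again the 1 gene that was higher, by 1.46 on the log2 scale (SE 0.18, adjusted p = 1.14e-09 by limma), against 26.5% of all genes. Between stalk and leaf it was higher by 0.74 (SE 0.18, adjusted p = 0.00036 by limma), against 37.2% of all genes. The last of these was the smallest difference among the 3 genes tested, with a ratio of means of 1.80 that ranged between 1.22 and 2.52 over the materials. Without the 5 libraries named above the 3 values were 2.27, 1.59 and 0.68, with adjusted p-values of 1.77e-14, 1.20e-09 and 0.00157.

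NtGSTF2 had its highest levels in leaf. In root it had a lowest level of 0.76 FPKM, a median of 3.93 and a highest of 8.02, in stalk 3.85, 9.62 and 15.6, and in leaf 17.1, 39.4 and 84.5. No root and no stalk library reached the level of any leaf library, and the share of all genes separated in this way was not computed. Root and stalk overlapped, with 8 of 18 root libraries below the lowest stalk library, and were separate within 4 of 6 materials. The extremes were Hongda 2 in root (0.76) and Va116 3 in leaf (84.51). Between root and leaf 2 of the 3 genes tested were lower, NtGSTF2 and NtGSTF5, where 37% of all genes tested were lower. For NtGSTF2 the log2 fold change was −3.07 (SE 0.19, adjusted p = 7.22e-20 by limma), and the root mean was 10.1-fold below the leaf mean. The same 2 genes were lower in root than in stalk, against 40.6% of all genes, NtGSTF2 with a log2 fold change of −1.16 (SE 0.19, adjusted p = 7.96e-07 by limma). Both were also lower in stalk than in leaf, against 31.3% of all genes, NtGSTF2 with −1.91 (SE 0.19, adjusted p = 1.56e-12 by limma). The larger step of this gene was thus that between stalk and leaf, whereas that of NtGSTF4 was between root and stalk. The NtGSTF2 values were −3.12, −1.28 and −1.84 without the 5 libraries, all still called.

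NtGSTF5, the duplicate of NtGSTF2, had the widest range between tissues of the 3 genes tested. In root it had a lowest level of 0.25 FPKM, a median of 1.12 and a highest of 3.15, in stalk 2.2, 4.97 and 15.8, and in leaf 22.0, 32.6 and 58.3. Again no root and no stalk library reached any leaf library, with no share over all genes computed. Root and stalk did not overlap within any of the 6 materials, although over all libraries only 15 of 18 root libraries lay below the lowest stalk library. The root mean was 27.0-fold below the leaf mean, and between 20.6-fold and 35.4-fold below it in the single materials. The log2 fold change between root and leaf was −4.03 (SE 0.16, adjusted p = 1.82e-28 by limma), that between root and stalk −1.50 (SE 0.16, adjusted p = 7.38e-12) and that between stalk and leaf −2.53 (SE 0.16, adjusted p = 4.91e-20). These were −4.17, −1.51 and −2.66 without the 5 libraries, and all were called. Over the libraries of a tissue, the coefficient of variation of NtGSTF2 came to 53.6% in root, 34.7% in stalk and 43.9% in leaf. That of NtGSTF5 came to 66.6% in root, 54.4% in stalk and 23.3% in leaf, so the leaf level of NtGSTF5 varied least.

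The Phi signal was thus nearly that of 1 gene in root and was divided among 3 genes in leaf. Of the summed FPKM of the 5 genes, NtGSTF4 made up 98.0% ± 1.41 in root, 87.0% ± 7.07 in stalk and 48.3% ± 9.66 in leaf (SD, n = 18 libraries each). The means were 98.2%, 87.1% and 48.3% without the 5 libraries. NtGSTF2 made up 1.49% in root, 8.24% in stalk and 26.7% in leaf, and NtGSTF5 0.486%, 4.72% and 24.8%. In leaf NtGSTF2 and NtGSTF5 together held 51.5% ± 9.59, with libraries between 39.2% and 72.5%. The summed level averaged 342 ± 148 FPKM over root libraries, against 139 ± 63.0 over stalk and 143 ± 34.0 over leaf libraries. Stalk and leaf thus had sums within 1 SD of each other with a different makeup. NtGSTF4 was the highest of the 5 in 18 of 18 root and 18 of 18 stalk libraries but in 15 of 18 leaf libraries. In the other 3, which were column 3 of Va116, VxG88 and GDH88, NtGSTF2 was higher.

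**Figure D2:**
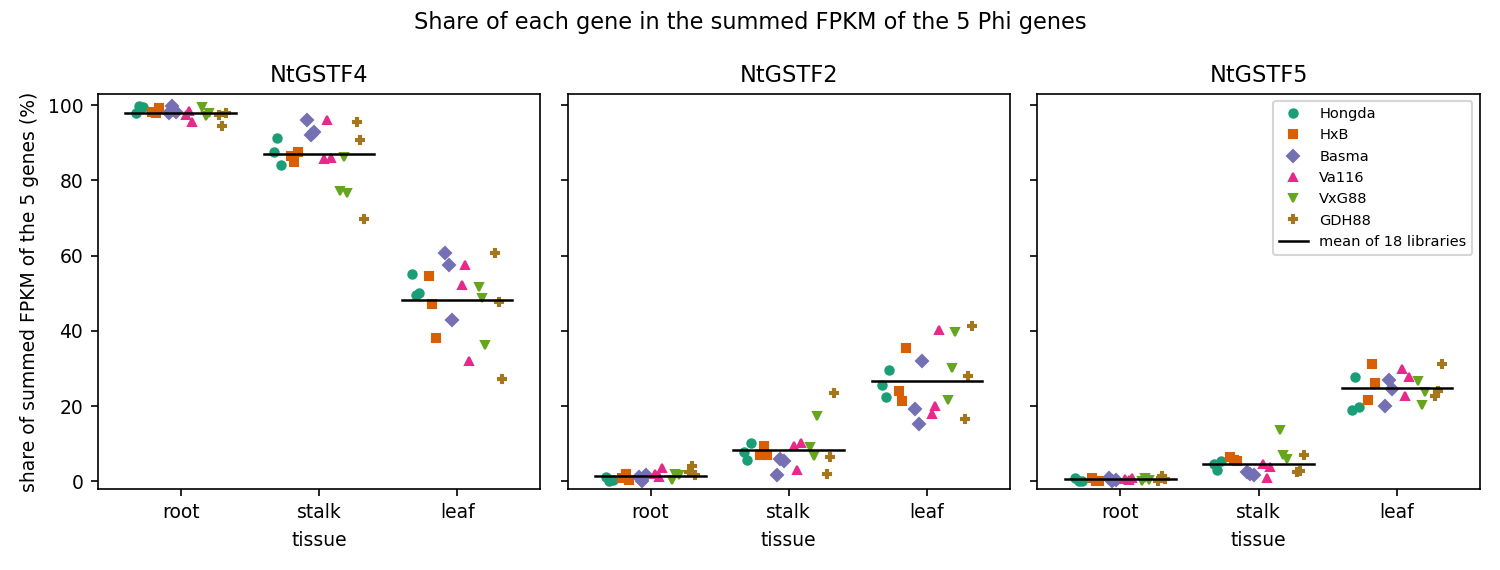
Share (%) of NtGSTF4, NtGSTF2 and NtGSTF5 in the summed FPKM of the 5 Phi genes in each library, by tissue and material, with a line at the mean of 18 libraries. NtGSTF4 holds at least 94.5% in every root library and between 27.2% and 60.7% in the leaf libraries.

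Among the 59 genes of the family, ordered by mean FPKM in a tissue, NtGSTF4 was the highest in root, number 4 in stalk and number 7 in leaf. NtGSTF2 stood at 35 in root, 19 in stalk and 17 in leaf, and NtGSTF5 at 48, 25 and 18. NtGSTF4 was therefore among the leading family members in each tissue, also in leaf, where its own level was lowest. Of all 69500 genes, 99.7% had a lower mean than NtGSTF4 in root, 98.4% in stalk and 97.0% in leaf. NtGSTF1 stood at 55 in root and 45 in leaf and was among 6 family members listed at 0 throughout stalk. NtGSTF3 stood at 54 in root and 53 in stalk and was 1 of 2 listed at 0 throughout leaf. No rank of NtGSTF2 or NtGSTF4 changed when the 5 libraries were left out, and NtGSTF5 stood at 49 in root, 26 in stalk and 18 in leaf.

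NtGSTF1 and NtGSTF3 were close to 0, with a lowest value above 0 of 0.07 FPKM for each, and an exact 0 may also be a failed estimate. Whether such a value stands for a single fragment was not tested. NtGSTF1 was listed above 0 in 7 of 18 root libraries, in 0 of 18 stalk libraries and in 17 of 18 leaf libraries. In root its highest value was 0.58 FPKM, in Hongda 1, and the 6 others above 0 were at 0.08 or 0.09. In leaf the median was 0.24 and the highest value 0.67, and the exception at 0 was Va116 1. Leaf was thus the tissue in which this gene was detected regularly, at under 1 FPKM. A permutation test of the difference in mean FPKM, with tissues exchanged within materials, was chosen after the values had been seen (two-sided, 100000 resamples, adjusted over 3 tests). It gave a root minus leaf difference of −0.23 (adjusted p = 0.00096), a root minus stalk difference of 0.06 (adjusted p = 0.0122) and a stalk minus leaf difference of −0.29 (adjusted p = 3e-05). In limma with no filter on low values, NtGSTF1 passed between root and leaf (log2 fold change −0.27, adjusted p = 3.17e-05) and between stalk and leaf (−0.35, adjusted p = 3.52e-07). Between root and stalk it did not (0.08, adjusted p = 0.296). Since stalk was at 0 throughout, the permutation p between root and stalk depends on which root libraries are above 0, not on their levels. Without Hongda 1 the root mean was 0.0306 FPKM, against 0.0611 with it, which left a difference of 0.03 to stalk (adjusted p = 0.568 by limma with no filter). The permutation gave an adjusted p of 0.0123 there, which is too small. With unequal numbers of libraries the mirrored arrangement fell short of the observed difference, so only 1 side was counted. With the 5 libraries left out, the permutation differences were −0.21, 0.07 and −0.27, with adjusted p-values of 0.00441, 0.0129 and 3e-05, and limma gave the same calls.

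NtGSTF3 was listed above 0 in 4 of 18 root libraries, in 1 of 18 stalk libraries and in 0 of 18 leaf libraries. The root values were 0.52 FPKM in HxB 1, 0.5 in Basma 1 and 0.07 each in VxG88 2 and Va116 3. The stalk value was 0.08, in Basma 3. With or without the 5 libraries, no contrast of NtGSTF3 passed in limma with no filter on low values. With them the adjusted p was 0.0835 between root and leaf, 0.126 between root and stalk and 1.00 between stalk and leaf. Of its values above 0.1 FPKM, that in Basma 1 comes from a library that correlated best with HxB. HxB 1, Basma 1 and Hongda 1, which held the NtGSTF1 value of 0.58 FPKM, had the most genes at 1 FPKM in root. Their numbers were 35845, 36062 and 37004, and the next was 34311, in Va116 1. Whether these values follow the number of genes detected was not tested. A difference between tissues was not detectable at these levels.

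**Figure D3:**
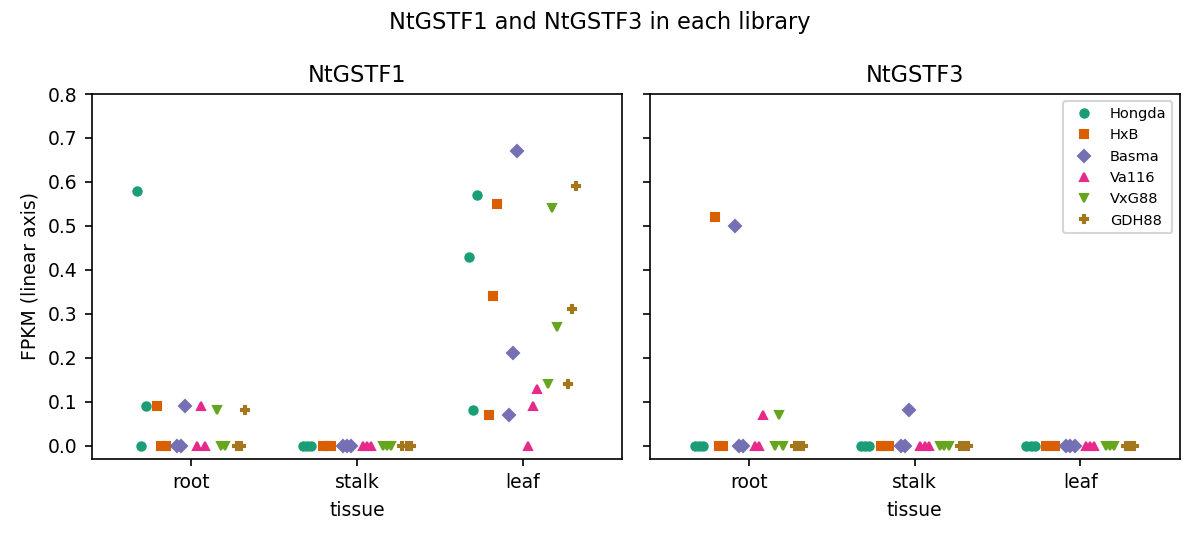
FPKM (linear axis) of NtGSTF1 and NtGSTF3 in each library, by tissue and material. NtGSTF1 reaches 0.67 in leaf and is at 0 in all stalk libraries, and NtGSTF3 has 5 values above 0 in all.

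The duplicates NtGSTF2 and NtGSTF5 shared their tissue order but not their ratio. Without a pseudocount, NtGSTF2 stood to NtGSTF5 within a library at a median ratio of 2.75 in root, against 1.88 in stalk and 1.14 in leaf. NtGSTF2 was the higher copy in 18 of 18 root libraries, 14 of 18 stalk libraries and 10 of 18 leaf libraries. In leaf this count differed by the number of the deposited column, with NtGSTF2 the higher copy in 6 of 6 libraries of column 3 and in 4 of 12 libraries of columns 1 and 2. On the scale log2((NtGSTF2 + 1)/(NtGSTF5 + 1)), root had a mean of 1.02 ± 0.74, stalk 0.68 ± 0.70 and leaf 0.06 ± 0.47 (SD, n = 18 libraries each). A permutation test within materials (two-sided, 100000 resamples, adjusted over the 6 tests of both pairs) gave a root minus leaf difference of 0.96 (adjusted p = 9e-05). Stalk minus leaf was 0.62 (adjusted p = 0.0108), and root minus stalk was 0.34 and did not pass (adjusted p = 0.196). Without the 5 libraries the differences were 1.02, 0.79 and 0.23, and the calls did not change. The stalk minus leaf difference did not pass without column 2 of each material (0.42, adjusted p = 0.253). Root minus leaf passed without column 3 (1.15, adjusted p = 0.00162). With no pseudocount, an alternative added after the values had been seen, root minus leaf was 1.56 and root minus stalk 0.83 (unadjusted permutation p = 1e-05, which is the lowest that 100000 resamples allow, and 0.0184). Both were similar without the 5 libraries (1.67 and 0.75, permutation p = 1e-05 and 0.0297).

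**Figure D4:**
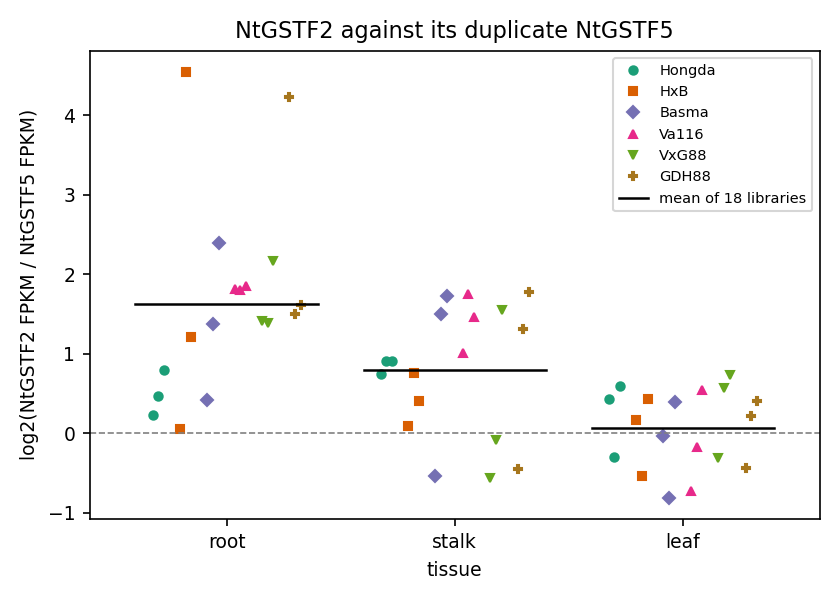
log2 ratio of the FPKM of NtGSTF2 to that of NtGSTF5 within each library, without a pseudocount, by tissue and material, with a line at the mean of 18 libraries and a dashed line at equal levels. All 18 root libraries lie above equal levels, with a highest ratio of 23.3, and the 18 leaf libraries lie between ratios of 0.570 and 1.66.

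For the pair NtGSTF1 and NtGSTF3 the same test gave a root minus leaf difference of −0.35 (adjusted p = 0.00044), a stalk minus leaf difference of −0.35 (adjusted p = 6e-05) and a root minus stalk difference of 0.01 (adjusted p = 0.944). Since NtGSTF3 was at 0 in all leaf libraries, the leaf ratio holds the level of NtGSTF1 alone. With the 5 libraries left out they were −0.29, −0.34 and 0.04, and the calls did not change.

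Among the 6 materials no difference in these genes passed the test against the spread of the libraries. No F test among materials passed in any tissue for NtGSTF2, NtGSTF4 or NtGSTF5 (0 of 9 by limma, and also 0 of 9 at an unadjusted p under 0.05). Of all genes tested, 0.307% passed this test in root, 0.403% in stalk and 1.6% in leaf, and 5.14%, 5.32% and 7.05% had an unadjusted p under 0.05. The tissue by material interaction passed for 0 of the 3 genes by limma, with an unadjusted p of 0.766 for NtGSTF2, 0.426 for NtGSTF4 and 0.34 for NtGSTF5, and for 0.458% of all genes. So the differences between tissues were not shown to differ among materials. Neither test passed for any of the 3 genes without the 5 libraries.

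With each material set against the mean of the other 5, 0 of 54 contrasts passed by limma, and 4 had an unadjusted p under 0.05. Over all genes and the 6 contrasts of a tissue, 0.0829% passed in root, 0.138% in stalk and 0.487% in leaf, and 4.65%, 4.62% and 5.83% had an unadjusted p under 0.05. The largest of the 4 in size was NtGSTF4 in stalk of Basma, at 283.8, 161.87 and 193.62 FPKM, with a log2 difference of 1.07 (SE 0.35, adjusted p = 0.816 by limma). The value of 283.8 FPKM is from Basma 1, which correlated best with its label but weakly (r = 0.24, against 0.82 and 0.83 for the others). That library was kept when the 5 were left out. In root NtGSTF2 was at 8.02, 6.99 and 4.75 FPKM in GDH88 (0.92, SE 0.35, adjusted p = 0.363) and at 3.67, 0.76 and 1.32 in Hongda (−0.86, SE 0.35, adjusted p = 0.514). These materials were the ends of the NtGSTF2 order in root, picked by their means, and did not overlap with each other. In stalk NtGSTF5 was at 15.76, 5.91 and 5.18 FPKM in VxG88 (0.66, SE 0.29, adjusted p = 1.00). Its first value is from the stalk library that correlated best with HxB (r = 0.79, against −0.24 with VxG88). The value of 6.99 FPKM in root of GDH88 is from the library that correlated best with VxG88. Without the 5 libraries 0 of 54 passed and 2 had an unadjusted p under 0.05. The differences were then 1.18 for NtGSTF4 in stalk of Basma (adjusted p = 0.445 by limma), 0.90 for NtGSTF2 in root of GDH88 (0.489), −0.82 for NtGSTF2 in root of Hongda (0.575) and 0.23 for NtGSTF5 in stalk of VxG88 (1.00).

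Ordered by their means, neighbouring materials overlapped in all 5 steps for each of the 3 genes in each tissue. The mean of the highest material was 2.01 times that of the lowest for NtGSTF4 in root (Hongda over Va116), 2.81 times in stalk (Basma over VxG88) and 1.59 times in leaf (Basma over VxG88). For NtGSTF2 it was 3.44 times in root (GDH88 over Hongda), 1.30 times in stalk (VxG88 over Hongda) and 1.29 times in leaf (Va116 over Basma). For NtGSTF5 it was 1.47 times in root (Hongda and GDH88, at the same mean, over VxG88), 2.33 times in stalk (VxG88 over Va116) and 1.47 times in leaf (Va116 over VxG88). The libraries of the highest and the lowest material did not overlap for NtGSTF2 in root, NtGSTF4 in stalk and NtGSTF5 in stalk, and overlapped in the 6 other cases. This is a description only, since these ends were picked by their means and the share over all genes was not computed. The order depends on the 5 libraries for NtGSTF5, and without them it ran in root between Hongda and Basma (2.04 times), in stalk between HxB and Va116 (1.78 times) and in leaf between Va116 and Hongda (1.34 times). For NtGSTF2 in stalk it then ran between GDH88 and Hongda (1.55 times), and the ends of the other orders did not change.

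HxB and VxG88 are written in the titles as crosses of initials, so HxB was set against the mean of Hongda and Basma, and VxG88 against the mean of Va116 and GDH88. None of 18 such contrasts passed by limma (0 called, smallest adjusted p = 0.888), and 2 had an unadjusted p under 0.05. Both were of NtGSTF5 in VxG88, with a log2 difference of 0.82 in stalk (SE 0.33, adjusted p = 1.00) and −0.48 in leaf (SE 0.21, adjusted p = 0.888). Each involves a library that correlated best with another material. When the 5 libraries were left out these differences were 0.41 and −0.32, and 0 of 18 contrasts had an unadjusted p under 0.05 (smallest adjusted p = 0.963). Over all genes and both contrasts, 0.0169% passed in root, 0.0625% in stalk and 0.282% in leaf, and 2.23%, 3.4% and 4.61% had an unadjusted p under 0.05.

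In leaf, libraries with the same column number tended to deviate together across materials (mean r over genes = 0.349, with r over 0.1 in 33 of 45 pairs), and NtGSTF2 differed with this number. No source says what the number stands for. NtGSTF2 was highest in column 3 in 6 of 6 materials, with means of 33.1, 26.8 and 56.6 FPKM in columns 1, 2 and 3 (n = 6 libraries each). An F test over the column numbers, added after the values had been seen, gave an adjusted p of 0.021 by limma for NtGSTF2 in leaf, where 24.1% of all genes passed and 38.7% had an unadjusted p under 0.05. With column 3 of each material left out, NtGSTF2 was still lower in root than in leaf (log2 fold change −2.75, adjusted p = 2.18e-12 by limma) and lower in stalk than in leaf (−1.79, adjusted p = 2.37e-08). The adjusted p of the column numbers was 0.0195 for NtGSTF2 in leaf without the 5 libraries, and none of the 8 other tests passed then. NtGSTF4 was highest in column 1 in 5 of 6 materials (means 89.2, 60.2 and 57.8 FPKM), and NtGSTF5 lowest in column 2 in 5 of 6 (means 35.6, 29.4 and 39.9 FPKM). Neither passed (adjusted p = 0.0776 and 0.111 by limma), although both had an unadjusted p under 0.05 (0.0233 and 0.0397). NtGSTF1, too low for this test, was highest in column 3 in 5 of 6 materials. In root 2.45% of all genes passed (25.7% at an unadjusted p under 0.05), and none of the 3 Phi genes did (smallest adjusted p = 0.57, smallest unadjusted p = 0.415). In stalk 0% of all genes passed by limma (3.9% at an unadjusted p under 0.05), with an unadjusted p of 0.0067 for NtGSTF5, 0.0713 for NtGSTF2 and 0.238 for NtGSTF4.

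**Figure D5:**
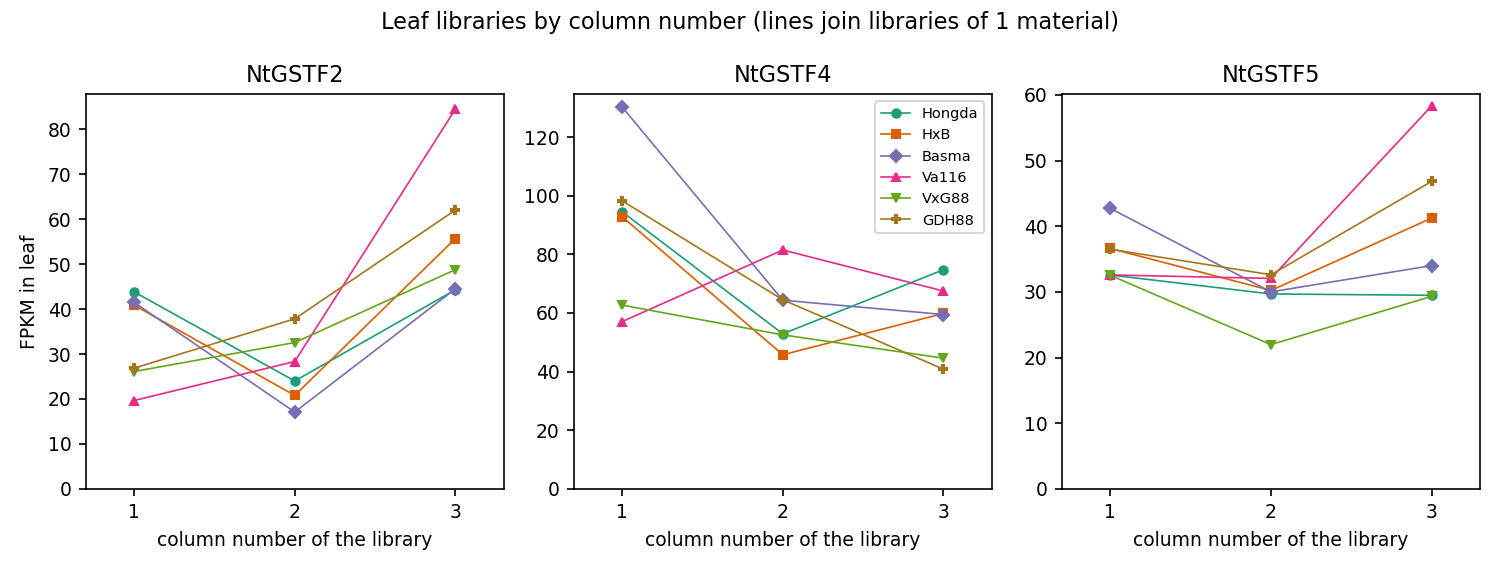
FPKM of NtGSTF2, NtGSTF4 and NtGSTF5 in the 18 leaf libraries by the number of the deposited column, with lines that join the libraries of 1 material. The number is a name without an order. NtGSTF2 is highest in column 3 in 6 of 6 materials.

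Within a tissue, correlations among the 5 genes over 18 libraries were computed for the 22 of 30 cases in which both genes varied, and 2 passed (permutation p with 100000 resamples, two-sided, adjusted over 22). How many pairs of other genes would pass was not computed, so these 2 are not shown to be particular to the Phi genes. In root NtGSTF2 and NtGSTF4 gave r = −0.65 (permutation p = 0.0036, adjusted p = 0.0396; rho = −0.63, permutation p = 0.00653). With the 2 libraries most distant from the median of NtGSTF2 left out, r was −0.67. The call was lost without the 5 libraries that correlated with another material (r = −0.61, adjusted p = 0.09) and on the log2 scale (r = −0.67, adjusted p = 0.0506). Root libraries with more NtGSTF4 thus tended to hold less NtGSTF2, with a call that depends on these libraries and on the scale. With material means subtracted r was −0.58 (adjusted p = 0.0447), and with the means of the column numbers subtracted it was −0.68 (adjusted p = 0.0224). Both of these permutations treated the 18 values left as free, although means had been subtracted, so their p-values are too small. Basma 2, Hongda 2, VxG88 1 and Hongda 3 had the fewest genes at 1 FPKM in root (30198, 31145, 31778 and 32050). They held the most NtGSTF4 in root (563.08, 626.59, 642.27 and 448.27 FPKM). Their NtGSTF2 was low (1.09, 0.76, 1.89 and 1.32 FPKM), and among the other root libraries only HxB 3 (1.71) was below VxG88 1. Whether the correlation follows the number of genes detected was not tested.

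In leaf NtGSTF2 and NtGSTF5 gave r = 0.77 (permutation p = 0.00053, adjusted p = 0.0117), but rho = 0.46 did not pass (permutation p = 0.0589). With the 2 libraries most distant from the NtGSTF2 median left out, r was 0.37, so on these values the relation rests on those libraries. Without Va116 3 alone, which held 84.51 FPKM of NtGSTF2 and 58.32 FPKM of NtGSTF5, r was 0.56 (adjusted p = 0.139). On the log2 scale it did not pass either (r = 0.62, adjusted p = 0.0591). With material means subtracted r was 0.84 (adjusted p = 0.00066), rho was 0.78 (permutation p = 0.0003) and r without the 2 most distant libraries was 0.70. With the means of the column numbers subtracted these values were 0.72 (adjusted p = 0.0224), 0.64 (permutation p = 0.0046) and 0.48. The p-values with means subtracted are too small here also, for the same reason as in root. Without the 5 libraries r was 0.80 (adjusted p = 0.00616), and 0.58 without the 2 most distant of the remaining libraries.

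Over the 18 group means of tissue and material on the log2 scale, NtGSTF2 and NtGSTF5 gave r = 0.98, and NtGSTF4 gave −0.90 with NtGSTF2 and −0.89 with NtGSTF5, as a description only, since these points share their tissues. The patterns of other family members most like those of the Phi genes were found by the Pearson r of these 18 group means. For NtGSTF5 they were NtGSTT1, of the Theta class (r = 0.99, with means of 7.16 FPKM in root, 15.3 in stalk and 40.8 in leaf), and NtGSTU24, of the Tau class (r = 0.99, with means of 2.26, 14.2 and 191 FPKM). The same 2 genes came first for NtGSTF2 (r = 0.98 and 0.96). For NtGSTF4 they were the Tau genes NtGSTU4 (r = 0.91) and NtGSTU37 (r = 0.90), whose leaf means were both 0.125 FPKM, against 69.1 FPKM for NtGSTF4. No family member thus matched NtGSTF4 as closely as NtGSTT1 matched its leaf counterparts. For NtGSTF1 they were NtGSTU34 (r = 0.90) and NtGSTU26 (r = 0.86), and for NtGSTF3 NtGSTU23 (r = 0.72) and NtGSTU9 (r = 0.68), all of the Tau class. Each group mean of NtGSTF3 above 0 rests on 1 library. That of Basma in root (0.167 FPKM) is 0 without the 5 libraries, and these r were not computed without them.

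Of the 54 other family members, 53 passed the filter. Between root and leaf 32 of these were higher and 15 lower, between root and stalk 36 were higher and 12 lower, and between stalk and leaf 7 were higher and 25 lower. Their median log2 fold changes were 0.68, 0.92 and −0.32, beside −0.01, −0.13 and 0.05 over all genes tested. Over all genes 36.4% were higher and 37% lower between root and leaf, 26.5% and 40.6% between root and stalk, and 37.2% and 31.3% between stalk and leaf. The Tau class made up most of the family, with 28 of 39 higher and 8 lower between root and leaf and 32 higher and 4 lower between root and stalk. Among the 14 members outside Tau and Phi, 4 were higher and 7 lower between root and leaf, and 4 were higher and 8 lower between root and stalk. In these contrasts NtGSTF4 had the more frequent direction of the Tau class, and NtGSTF2 and NtGSTF5 that of the 14 others. Between stalk and leaf 4 of 39 Tau genes were higher and 17 lower, and 3 of the 14 others were higher and 8 lower. There NtGSTF4 had the less frequent direction of both, and NtGSTF2 and NtGSTF5 the more frequent. The counts of the 14 others are small, and no class was tested against the shares over all genes.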

How the data were processed

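The authors deposited 1 table of FPKM for each tissue, with 2 decimals. HISAT2, StringTie and RSEM are listed in the submitters' processing notes, with no version. Their genome build is not given in the sources consulted. Columns were assigned to a tissue and material by their names, and the 3 columns of a group were its replicates. No pair of libraries among 1431 held identical values. Depth is unknown: 18.8% of low-value ratios lay within 0.1 of a whole number, against 20% by chance, so no counts were derived. The genes of this check do not include NtGSTF1 and NtGSTF3.

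limma 3.58.1 in R 4.3.3 was fitted on log2(FPKM + 1) with a variance trend, over genes that reached 1 FPKM in 3 or more of the libraries fitted (42820 over all tissues, 38399 in root, 35994 in stalk and 35971 in leaf). Tests were two-sided, with Benjamini-Hochberg adjustment over all genes kept. The fits were tested on simulated data. Permutation tests, correlations and plots used Python 3.11.15, numpy 2.4.6, pandas 2.3.3, scipy 1.17.1 and matplotlib 3.10.9. Libraries were checked against their labels with genes that differed among materials in the other tissues.

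The genes named are the 5 Phi genes and, for each, the 2 other family members with the highest r of the group means. The members and lists were chosen with earlier results of these data known. Alternatives were pseudocounts of 0.1 and 0.01, other filters and scalings, no variance trend, a replicate block, 1 fit of all libraries for the materials, replicates and materials left out, and other scales for the correlations. The RT-qPCR measurements, coordinates, promoters and protein sequences were not analysed here.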

Additional observations from a re-analysis of the deposited data

How the results depend on the processing

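The 9 tissue contrasts of NtGSTF2, NtGSTF4 and NtGSTF5 kept their direction and stayed past the threshold in all 162 combinations with 18 alternatives. The NtGSTF4 difference between stalk and leaf came closest to the threshold, with log2 fold changes between 0.61 and 0.83 and an adjusted p of at most 0.0185 by limma. With a replicate block it was 0.74 (adjusted p = 0.000113). Same-numbered columns of 1 material deviated together in 10 of 18 root and leaf pairs, 6 of 18 root and stalk pairs and 15 of 18 stalk and leaf pairs (r over 0.1). By the methods the root, stalk and leaf of a replicate came from the same plants, but no source ties the column numbers to these replicates. Since r was not over 0.1 in every pair, the numbers were not taken to pair the samples. The main tests thus treat the tissues as independent, which the design may not meet. The block changed no call of a tissue contrast. No alternative gave a Phi gene that passed among materials or for the interaction. With a pseudocount of 0.1 the root minus stalk difference of the NtGSTF2 to NtGSTF5 ratio passed (0.74, adjusted p = 0.0315 by permutation). The number of correlations that passed was 2, against 0 on the log2 scale, 5 with material means subtracted and 1 without the 5 libraries that correlated with another material. The count with material means subtracted rests on p-values that are too small, as said above. Among correlations of NtGSTF2, NtGSTF4 and NtGSTF5 that did not pass, the sign turned for NtGSTF2 and NtGSTF4 in leaf (r = −0.016) on the log2 scale (0.034), with material means subtracted (0.000082) and with the replicate block (0.36). It turned for NtGSTF2 and NtGSTF5 in stalk (r = 0.052) with material means subtracted (−0.023) and without the 5 libraries (−0.055), and for NtGSTF4 and NtGSTF5 in stalk (r = −0.14) with material means subtracted (0.17). It also turned under some alternative for 7 of the 13 correlations that involve NtGSTF1 or NtGSTF3. The causes were not tested. Read numbers are unknown, which limits what can be said of NtGSTF1 and NtGSTF3.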
